A study of Mus musculus with 165 samples.

Results

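Liver zonation genes are genes whose expression depends on where a hepatocyte sits between the portal vein, where blood enters the lobule, and the central vein, where it leaves. 10 of them were followed here: Glul, Oat, Axin2, Lgr5, Tbx3 and Rhbg as genes of the central vein side, and Hal, Sds, Gls2 and Cdh1 as genes of the portal side. They were chosen by name, as the entries of the liver count table whose Ensembl identifier maps to these symbols, so 10 of 55471 entries, and the 10 members all passed the filter on low counts that left 15579 genes for testing. The libraries came from livers and brains of male C57BL/6J/Ukj mice sampled at 3, 9, 15, 24 or 28 months of age, with 16, 16, 16, 17 and 18 livers, 83 in all, and 82 brains. The labels name no engineered allele and no treatment, and the animals of every age had been housed in a controlled environment only to grow old. Each liver was a different mouse, and every age was spread over 3 preparation batches that the labels call prep 1, 2 and 3. All mice were male and of 1 strain, and the measurement was RNA of bulk tissue, so position within the lobule was not observed.

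The liver lobule divides its work along the flow of blood. Endothelial cells around the central vein secrete Wnt ligands and R-spondin 3, which keep β-catenin active in the nearest hepatocytes, and these express glutamine synthetase, Axin2 and Lgr5. Hepatocytes on the portal side carry more of gluconeogenesis, urea synthesis and the breakdown of amino acids such as histidine, serine and glutamine. Ammonia that escapes the urea cycle upstream is captured as glutamine by the last hepatocytes before the central vein.

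The liver libraries held between 5.82 M and 57.5 M counts assigned to genes, with medians by age between 31.0 M and 36.8 M. Albumin (Alb) was at least 16688 CPM (counts per 1 M assigned counts) in every liver and at most 18.8 in every brain, while the neuronal gene Snap25 was at most 48.1 CPM in liver and at least 734 in brain. A pair of livers resembled the others of their age least, 24 months replicate 13 with a mean Spearman's rho of 0.936 and 28 months replicate 14 with 0.956, and counts over the gene lists from 3 to 28 months that change without the latter are given both ways. Levels below are CPM scaled by trimmed mean of M values (TMM), and a gene is said to have risen or fallen where edgeR's quasi-likelihood test, with terms for age and prep over the 83 livers, gave a Benjamini-Hochberg adjusted p under 0.05. In bulk RNA, fewer cells of a type and less RNA per cell cannot be told apart.

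In the genome build GRCm38.p6, the central vein members were Lgr5 (ENSMUSG00000020140) at chr10:115450311-115587780 on the minus strand, Axin2 (ENSMUSG00000000142) at chr11:108920349-108950783 on the plus strand, Tbx3 (ENSMUSG00000018604) at chr5:119670669-119684724 on the plus strand, Glul (ENSMUSG00000026473) at chr1:153899944-153909723 on the plus strand, Oat (ENSMUSG00000030934) at chr7:132557478-132576398 on the minus strand and Rhbg (ENSMUSG00000104445) at chr3:88242874-88254709 on the minus strand. The portal members were Gls2 (ENSMUSG00000044005) at chr10:128194457-128210004, Hal (ENSMUSG00000020017) at chr10:93488768-93519304, Sds (ENSMUSG00000029597) at chr5:120476526-120483932 and Cdh1 (ENSMUSG00000000303) at chr8:106603351-106670246, each on the plus strand. Of the exonic bases of Sds, 21.3% lie opposite exons of Plbd2, and Plbd2 had 56.4% as many counts as Sds; whether the counting used strand is not given in the sources used here. Exons of Rhbg share 61.4% of their bases with Gm38392 on the same strand, a gene with a mean of 0.0186 CPM. These overlaps were read from an annotation of the same build, which need not be the one used for the counts.

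RefSeq promoter sequences were at hand for 4 of the 10 members. Those of Glul and Axin2, which are known β-catenin targets, and of Hal, a portal gene, are shown to set the promoters of both sides of the lobule next to each other. Each is the 250 bases before the start of the gene in RefSeq's annotation of GRCm38.p6, read 5′ to 3′ on the gene's own plus strand, at chr1:153899679-153899928 for Glul, chr11:108920099-108920348 for Axin2 and chr10:93488518-93488767 for Hal. Capitals mark the letters CTTTG followed by A or T and again by A or T, the core that TCF/LEF factors, the DNA-binding partners of β-catenin, are known to recognise; both strands were searched.
Glul: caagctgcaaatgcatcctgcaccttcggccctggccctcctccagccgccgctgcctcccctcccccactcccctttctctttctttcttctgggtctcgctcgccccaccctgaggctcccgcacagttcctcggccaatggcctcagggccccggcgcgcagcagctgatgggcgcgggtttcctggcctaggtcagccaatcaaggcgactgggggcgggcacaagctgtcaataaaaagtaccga
Axin2: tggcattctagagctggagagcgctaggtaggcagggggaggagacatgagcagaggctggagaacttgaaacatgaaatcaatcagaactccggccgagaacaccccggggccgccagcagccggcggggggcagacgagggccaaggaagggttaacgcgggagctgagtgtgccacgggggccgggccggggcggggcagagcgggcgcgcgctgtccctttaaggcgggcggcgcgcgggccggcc
Hal: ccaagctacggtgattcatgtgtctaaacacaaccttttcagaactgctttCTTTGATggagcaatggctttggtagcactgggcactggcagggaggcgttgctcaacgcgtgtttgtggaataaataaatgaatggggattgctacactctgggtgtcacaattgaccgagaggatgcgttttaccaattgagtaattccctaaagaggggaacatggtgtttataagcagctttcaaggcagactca
Among these 3 and the promoter of Oat, only that of Hal held such a match, CTTTGAT on the gene's strand starting 199 bases before the gene. Of 32851 RefSeq promoters of the same length, 4874 (14.8%) held at least 1. A match is a description of the letters in this window and not of binding, and enhancers and introns were not searched.

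At 28 months 5 of the 10 members differed from 3 months, in both directions and on both sides of the lobule. Cdh1, the epithelial adhesion molecule E-cadherin, fell 5.95-fold, and Tbx3, a transcription factor of central vein hepatocytes, fell 1.66-fold. Sds, serine dehydratase, rose 1.74-fold, Oat, ornithine aminotransferase, rose 1.47-fold, and Lgr5, a receptor for R-spondins, rose 1.40-fold. Glul, Axin2, Rhbg, Hal and Gls2 did not pass the test. Of all genes tested, 61.9% passed in this comparison, so 5 of 10 is no larger a share than that of the liver transcriptome, and the median log2 fold change was 0.02 over the members against 0.01 over all genes. Of all genes tested 31.9% were higher and 30% lower; among central vein members 2 were higher and 1 lower, and among portal members 1 was higher and 1 lower.

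**Figure D1:**
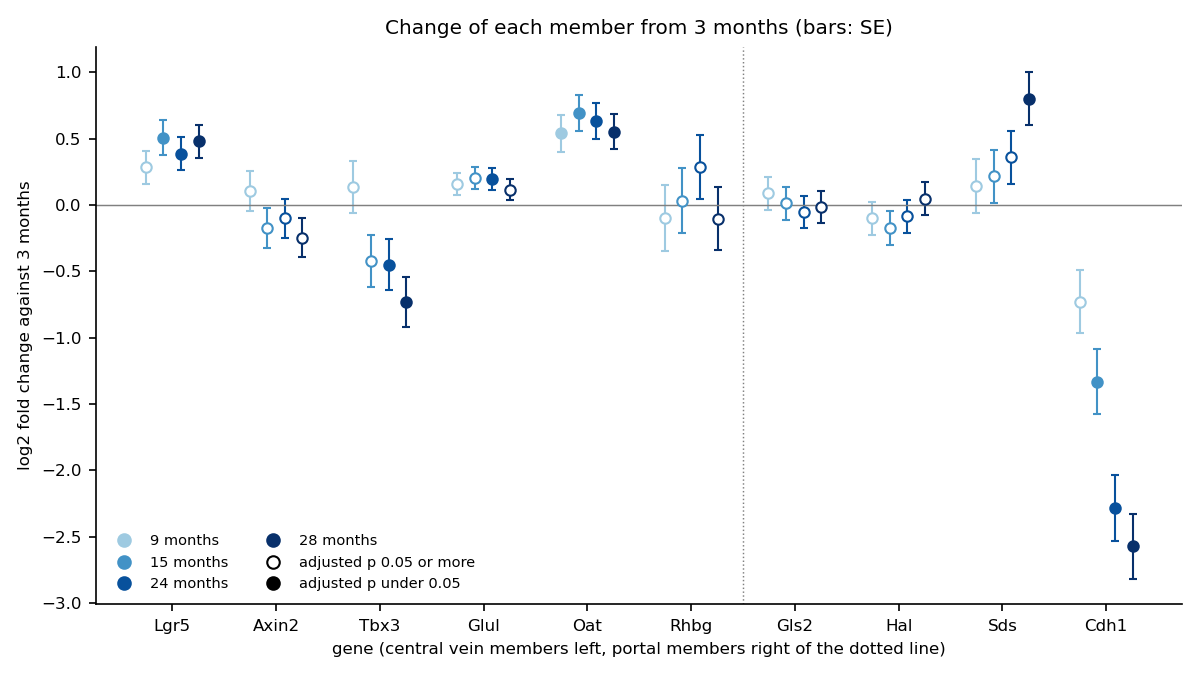
Log2 fold change of each member against 3 months, with the standard error as a bar; the 4 shades stand for 9, 15, 24 and 28 months, and filled points passed the test. Cdh1 reaches -2.57 at 28 months, while Hal and Gls2 stay near 0.

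The age at which members first passed the test against 3 months ranged from 9 to 28 months; whether members differ in timing was not tested. At 9 months 1 member had changed, Oat, against 4.69% of all genes. At 15 months 3 had changed (Oat, Lgr5 and Cdh1) against 7.32% of all genes, and at 24 months 5 (Oat, Lgr5, Glul, Tbx3 and Cdh1) against 49%. The shares of all genes at 9 and 15 months leaned on single livers of 3 months: without replicate 10, 13, 15 or 16 the 731 genes called at 9 months became 313, 310, 348 or 293, and the 1140 at 15 months became 734, 604, 676 or 631. With the 2 ages alone they were 342 and 708, with limma voom and sample weights 316 and 967, and within single preps at most 12 and 64. Between consecutive sampled ages, none of the members passed edgeR's test from 9 to 15 months, where 0.0514% of all genes did (8, and 5 without 15 months replicate 1); before adjustment, 2 members had p under 0.05. From 15 to 24 months 1 member passed, Cdh1, against 36% of all genes. From 24 to 28 months none passed, where 15.3% of all genes did (1 member before adjustment); the 2385 genes behind this share became 115 once a score of circadian clock genes entered the fit, 1152 with the 2 ages alone, 0 and 198 in preps 2 and 3, 3616 without 24 months replicate 13 and 4157 with voom. Against 9 months, Tbx3 and Cdh1 differed at 24 months and Axin2 (edgeR adjusted p = 0.0318), Tbx3, Sds and Cdh1 at 28 months, where 46.8% and 59.4% of all genes did. Against 15 months, Sds and Cdh1 differed at 28 months, where 55.6% of all genes did. In the joint test of the 5 ages, the same 5 members as at 28 against 3 months passed, and Axin2 did not: Cdh1 (edgeR adjusted p = 1.11e-16), Oat (7.16e-05), Tbx3 (0.000187), Lgr5 (0.00202) and Sds (0.00204), against 71.5% of all genes.

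**Figure D2:**
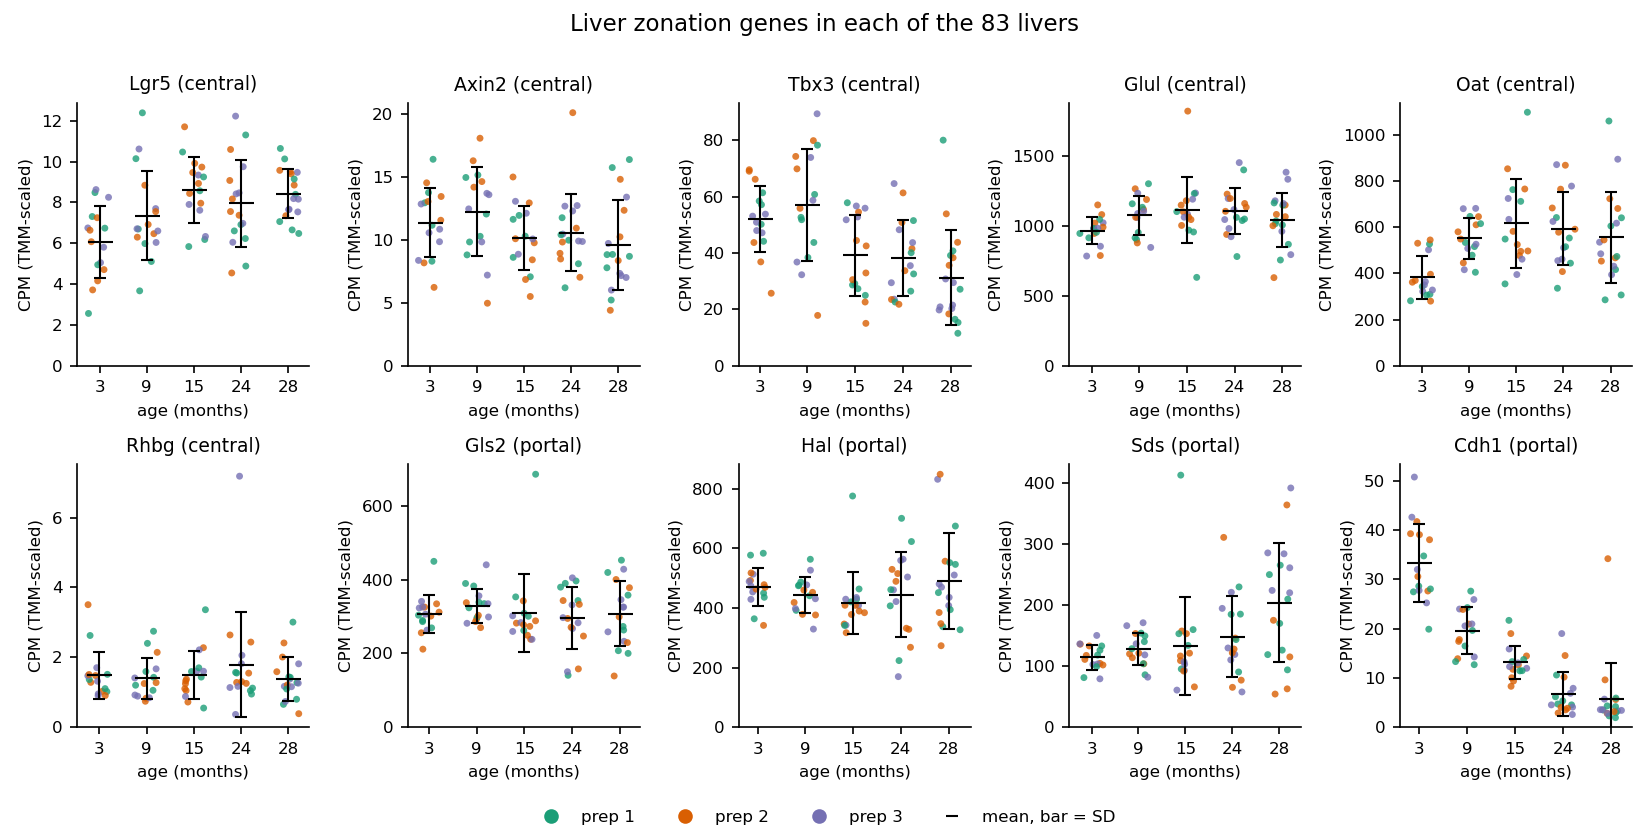
Level of each member in each of the 83 livers (TMM-scaled CPM, axes from 0) by age, coloured by prep, with the mean and SD in black. Cdh1 falls from a mean of 33.4 CPM at 3 months to 5.70 at 28, where 1 liver stands at 34.2.

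Per kilobase of transcript, the levels of the members spanned a wide range. At 3 months Glul stood highest with a mean of 291 CPM per kb, then Oat with 162, Gls2 with 88.3, Hal with 84.8 and Sds with 67.5. The other members were far lower: Tbx3 was at 7.88 CPM per kb, Cdh1 at 7.29, Axin2 at 2.07, Rhbg at 0.763 and Lgr5 at 0.591. At 28 months Sds (120.1 CPM per kb) stood above Hal (88.4) and Gls2 (88.7), Cdh1 (1.25) had dropped below Axin2 (1.74), and Lgr5 (0.822) stood above Rhbg (0.711). Whether these levels differ between genes was not tested. The level of Rhbg was divided by all its exonic bases, 61.4% of which are shared with Gm38392. How reads in shared bases were counted is not given in the sources used here, so the order of Rhbg and Lgr5 is uncertain.

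Lgr5, the R-spondin receptor that amplifies Wnt signals, was higher at 15, 24 and 28 months than at 3. Its lowest, median and highest levels were 2.56, 6.35 and 8.63 CPM at 3 months, 3.67, 6.70 and 12.4 at 9, 5.84, 8.75 and 11.7 at 15, 4.54, 7.55 and 12.2 at 24, and 6.48, 8.29 and 10.6 at 28. The ages overlapped widely, but 8 of 18 livers at 28 months lay above the whole 3-month range and none below it, and no liver at 28 months was under the 3-month median. The log2 fold change against 3 months was 0.28 ± 0.13 (SE; edgeR adjusted p = 0.192) at 9 months, 0.51 ± 0.13 (0.00699) at 15, 0.39 ± 0.13 (0.00788) at 24 and 0.48 ± 0.12 (0.000577) at 28. Within prep 1, 2 and 3 fitted alone, the change from 3 to 28 months was 0.46 (adjusted p = 0.196), 0.73 (0.00615) and 0.23 (0.299), the same direction in each.

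Axin2 encodes a scaffold that promotes the breakdown of β-catenin and is itself induced by β-catenin, which makes it the usual readout of Wnt activity. Axin2 had lowest, median and highest levels of 6.22, 11.4 and 16.4 CPM at 3 months, 4.96, 13.0 and 18.1 at 9, 5.50, 10.1 and 15.0 at 15, 6.19, 9.97 and 20.1 at 24, and 4.40, 8.75 and 16.4 at 28. No liver at 28 months exceeded the 3-month range and 3 of 18 lay below it. The change from 3 to 28 months, -0.25 ± 0.15 on the log2 scale, did not pass edgeR's test (adjusted p = 0.137, 95% interval -0.54 to 0.04). With sample weights (limma voom) it did, at -0.37 (adjusted p = 0.0378). Its mean was highest at 9 months (12.2 ± 3.51 CPM, SD, n = 16) and 9.57 ± 3.57 at 28 (n = 18), and the joint test of the 5 ages did not pass (edgeR adjusted p = 0.166).

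Tbx3, a T-box transcription factor and β-catenin target, was lower in old livers. Its lowest, median and highest levels were 25.7, 52.0 and 69.5 CPM at 3 months, 17.8, 57.3 and 89.4 at 9, 15.0, 37.7 and 57.8 at 15, 21.8, 35.5 and 64.6 at 24, and 11.5, 28.3 and 80.0 at 28. At 28 months 8 of 18 livers lay below the 3-month range, while 1, replicate 13, lay above it. The log2 fold change against 3 months was 0.13 (edgeR adjusted p = 0.776) at 9 months, -0.42 (0.196) at 15, -0.45 ± 0.19 (0.0448) at 24 and -0.73 ± 0.19 (0.000622) at 28. It was -1.09 (adjusted p = 0.000626) in prep 3 alone but -0.74 (0.0784) and -0.45 (0.399) in preps 1 and 2. The difference at 24 months was close to the threshold: leaving out any 1 of 17 livers (3 months replicates 1, 2, 5, 7, 10, 13, 15 and 16, and 24 months replicates 1, 3, 4, 5, 6, 7, 8, 10 and 13) brought its adjusted p above 0.05, to at most 0.0745, and it did not pass with voom (0.154).

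Glul encodes glutamine synthetase, which is confined to the hepatocytes next to the central vein. Lowest, median and highest levels were 785, 982 and 1151 CPM at 3 months, 847, 1097 and 1302 at 9, 632, 1093 and 1822 at 15, 781, 1105 and 1453 at 24, and 630, 1051 and 1385 at 28. The median changed little. The SD was 97.3 CPM around a mean of 966 at 3 months (n = 16) and 192 around 1041 at 28 (n = 18). It was highest at 15 months, with 237, and spread was not tested. At 28 months 5 of 18 livers lay above the 3-month range and 2 below it. The change from 3 to 28 months was 0.11 on the log2 scale (edgeR adjusted p = 0.211, 95% interval -0.04 to 0.27). That at 24 months, 0.19 ± 0.08, passed with an adjusted p of 0.0414. Leaving out any 1 of 9 livers (3 months replicates 6, 10, 13 and 16, and 24 months replicates 3, 5, 6, 11 and 13) ended that call, with an adjusted p of at most 0.0894.

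Oat, which converts ornithine and lies with Glul in the innermost central vein hepatocytes, was higher from 9 months on. Its lowest, median and highest levels were 280, 356 and 544 CPM at 3 months, 405, 541 and 681 at 9, 354, 565 and 1097 at 15, 335, 578 and 870 at 24, and 285, 510 and 1059 at 28. At every older age the ranges overlapped, with 8 of 16, 9 of 16, 10 of 17 and 8 of 18 livers above the 3-month range and none below it. The log2 fold change against 3 months was 0.54 ± 0.14 (edgeR adjusted p = 0.0114) at 9 months, 0.69 ± 0.14 (0.000316) at 15, 0.63 ± 0.14 (7.4e-05) at 24 and 0.55 ± 0.13 (0.000259) at 28. Among the 4 older ages no neighbouring pair in the order of levels differed. Within preps 1, 2 and 3 the change from 3 to 28 months was 0.60 (adjusted p = 0.0825), 0.48 (0.0874) and 0.58 (0.0328). Whether the change of Oat differed from that of Glul was not tested.

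Rhbg encodes an ammonia channel of the basolateral membrane of central vein hepatocytes and was the member with the lowest CPM. Across livers its lowest, median and highest levels were 0.898, 1.34 and 3.51 CPM at 3 months, 0.740, 1.26 and 2.75 at 9, 0.545, 1.40 and 3.36 at 15, 0.363, 1.30 and 7.19 at 24, and 0.384, 1.27 and 3.01 at 28. The medians lay close together and single livers stood far above them, most of all 24 months replicate 10 with 7.19 CPM. The change from 3 to 28 months was -0.10 ± 0.24 on the log2 scale (edgeR adjusted p = 0.725), with a 95% interval from -0.57 to 0.36.

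Gls2, the liver-type glutaminase that releases ammonia from glutamine on the portal side, and Hal, histidine ammonia-lyase, the first enzyme of histidine breakdown, did not pass the test at any age against 3 months. For Gls2 the lowest, median and highest levels were 212, 305 and 450 CPM at 3 months, 270, 330 and 441 at 9, 238, 283 and 687 at 15, 141, 297 and 406 at 24, and 139, 313 and 454 at 28. For Hal they were 341, 471 and 584 CPM at 3 months, 329, 447 and 563 at 9, 317, 409 and 776 at 15, 169, 461 and 701 at 24, and 273, 461 and 849 at 28. The highest values at 15 months were those of replicate 1 for both genes, and the other 15 livers of that age reached 354 CPM for Gls2 and 464 for Hal. For Hal the livers at 24 and 28 months reached both lower and higher than those at 3 and 9 months, while for Gls2 the lowest values were those at 24 and 28 months; spread was not tested. The change from 3 to 28 months was -0.01 ± 0.12 for Gls2 (edgeR adjusted p = 0.942, 95% interval -0.25 to 0.23) and 0.05 ± 0.12 for Hal (0.757, -0.19 to 0.29).

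Sds, which turns serine into pyruvate and is known to follow glucagon, feeding and time of day, was the portal member that rose. Its lowest, median and highest levels were 78.9, 114 and 150 CPM at 3 months, 81.6, 125 and 171 at 9, 60.5, 113 and 412 at 15, 57.5, 129 and 310 at 24, and 54.0, 214 and 391 at 28. The 412 at 15 months was replicate 1 alone, and the other 15 livers of that age reached 159. At 28 months 12 of 18 livers lay above the 3-month range, 4 inside it and 2 below it. The log2 fold change against 3 months was 0.14 (edgeR adjusted p = 0.767) at 9 months, 0.21 (0.597) at 15, 0.36 ± 0.20 (0.128) at 24 and 0.80 ± 0.20 (0.000389) at 28. The 28-month level was also above that at 9 months (0.66, adjusted p = 0.00317) and at 15 months (adjusted p = 0.0105). Against 24 months the difference did not pass (0.44, 0.113), but it passed without 24 months replicate 8 (0.0328), with voom (0.52, 0.0182) and in prep 3 alone (0.99, 0.0452). Within preps 1, 2 and 3 the change from 3 to 28 months was 0.64 (adjusted p = 0.0865), 0.41 (0.462) and 1.28 (0.000594).

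Core clock and clock output genes changed in the same livers as Sds. Of 15 such genes 7 were higher and 5 lower at 28 than at 3 months, where 31.9% of all genes tested were higher and 30% lower. The largest increases were those of Ciart (4.03 on the log2 scale), Per3 (3.57), Dbp (2.91) and Per1 (1.96). A score made of these genes ran from -1.83 to 1.50 in the 3-month livers and from -1.52 to 4.84 in the 28-month livers. With that score as a covariate, the change of Sds from 3 to 28 months was 0.48 (edgeR adjusted p = 0.103), no longer past the threshold. The other members called at 28 months still passed, with changes smaller in size than without the score. These were 0.46 for Oat (edgeR adjusted p = 0.015), 0.41 for Lgr5 (0.0241), -0.66 for Tbx3 (0.0153) and -2.26 for Cdh1 (4.35e-09). As the score itself differed between these ages, this fit cannot separate it from age. The time of day of collection is not given in the sources used here, and its part in the change of Sds was not tested. Plbd2, which lies opposite part of Sds, changed by 0.21 (edgeR adjusted p = 0.0032), and its correlation with Sds within age and prep was 0.36 over the 83 livers.

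Cdh1, which in liver is found on portal hepatocytes and on bile duct cells, fell with age, and at 28 months by more than the other members. Lowest, median and highest levels of Cdh1 were 19.9, 31.3 and 50.8 CPM at 3 months, 12.7, 20.1 and 27.6 at 9, 8.29, 12.5 and 21.7 at 15, 2.56, 4.69 and 19.0 at 24, and 1.91, 3.50 and 34.2 at 28. Of the older livers 8 of 16, 15 of 16, 17 of 17 and 17 of 18 lay below the whole 3-month range. The mean fell from 33.4 ± 8.00 CPM (SD, n = 16) at 3 months to 19.6 ± 4.73 (n = 16), 13.1 ± 3.41 (n = 16), 6.77 ± 4.48 (n = 17) and 5.70 ± 7.34 (n = 18). The log2 fold change against 3 months was -0.73 ± 0.24 (edgeR adjusted p = 0.0591) at 9 months, -1.33 ± 0.24 (7.59e-05) at 15, -2.28 ± 0.25 (6.67e-12) at 24 and -2.57 ± 0.24 (1.04e-14) at 28. The step from 15 to 24 months passed as well (-0.95 ± 0.24, adjusted p = 0.00139). Within preps 1, 2 and 3 the change from 3 to 28 months was -2.97 (1.22e-07), -1.71 (0.0167) and -3.29 (4.14e-07). Prep 2 holds 28 months replicate 14, described next, and without it the change within that prep was -2.76 ± 0.40 (edgeR adjusted p = 0.000133), with the other 4 livers of 28 months at 2.79 to 9.60 CPM.

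A single 28-month liver stood apart in Cdh1. Replicate 14 had 34.2 CPM, a level usual at 3 months, and the next highest 28-month liver had 9.60. The same liver had 21.2 CPM of Krt7, a keratin of bile duct cells, against 0.578 to 1.14 in the other 28-month livers. Epcam, a bile duct surface protein, stood at 15.4 CPM against 0.518 to 2.19, and Krt19 at 10.7 against 0.389 to 2.34. Without it the change of Cdh1 from 3 to 28 months was larger, -3.02 ± 0.20 (edgeR adjusted p = 4.36e-22), and the step from 24 to 28 months, -0.29 (0.438) with it, became -0.74 (0.00338). The difference at 9 months passed with DESeq2 (adjusted p = 0.0471) and with voom (3.51e-05), without this liver (0.0083), and without any 1 of 3 months replicates 1, 3 and 9, 9 months replicate 12 or 24 months replicate 10.

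Bile duct markers as a list did not fall with Cdh1. Of 10 bile duct markers 7 were abundant enough to test; Cftr and Sctr were among those that were not. From 3 to 28 months 3 rose (Krt7, Epcam and Cldn7) and 1 fell, where 31.9% of all genes tested rose and 30% fell. Without replicate 14 none rose and 2 fell, among them Krt19 (-0.44, edgeR adjusted p = 0.0294), while the change was 0.04 (0.839) for Krt7 and 0.16 (0.473) for Epcam. The summed level of the list ran from 64.1 to 96.6 CPM at 3 months and from 52.8 to 235 at 28, with medians of 72.5 and 70.3. The 235 was replicate 14, and the other 17 livers of 28 months reached 94.3. The part of bile duct cells in the level of Cdh1 was not tested beyond these values.

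**Figure D3:**
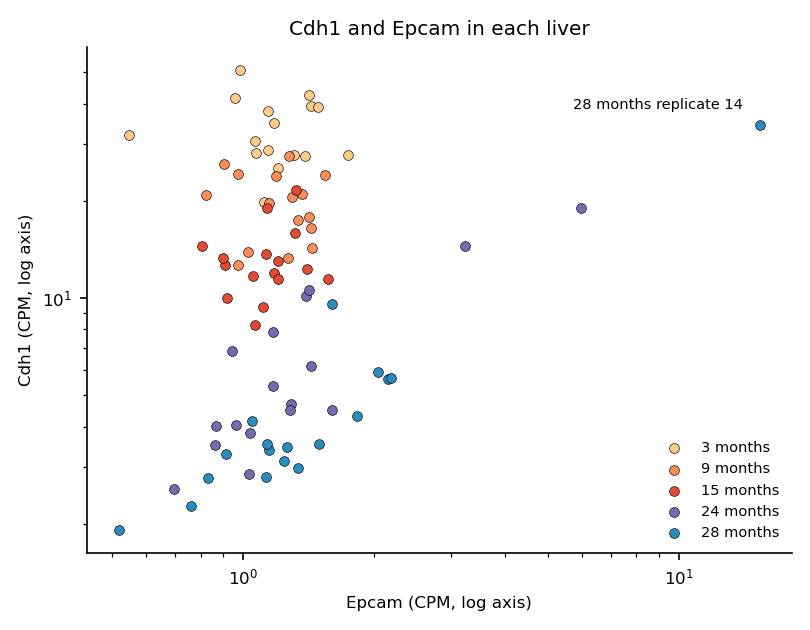
Cdh1 against Epcam in each of the 83 livers, both in CPM on log axes, coloured by age. The 28-month livers lie below the 3-month livers in Cdh1, except that 28 months replicate 14 stands apart with 15.4 CPM of Epcam and 34.2 of Cdh1.

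Some livers were the lowest or the highest of their age in several members at once, as some must be among 16 to 18 livers and 10 members. Of the 83 livers 15 were so in 3 or more of the 10 members, at least 1 of them at each age, and 5 in 4 or more. At 3 months, replicate 12 had the highest Glul (1151 CPM), Oat (544) and Rhbg (3.51) and the lowest Hal (341) and Gls2 (212), and with a mean rho of 0.968 it was the liver least like the others of that age. At 15 months, replicate 1 had the highest Oat (1097 CPM), Hal (776), Sds (412), Gls2 (687) and Cdh1 (21.7) and the lowest Glul (632) and Rhbg (0.545). At 24 months, replicate 10 had the highest Rhbg (7.19 CPM) and Cdh1 (19.0) and the lowest Hal (169) and Sds (57.5). At 28 months, replicate 17 had the highest Hal (849 CPM) and the lowest Glul (630), Axin2 (4.40) and Rhbg (0.384), and replicate 14 the highest Cdh1 (34.2) and the lowest Hal (273), Sds (54.0) and Gls2 (139).

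To describe how the members vary from mouse to mouse, the means of age and prep were removed from log2 CPM and the residuals of the 45 pairs of members were correlated over the 83 livers. 10 pairs passed with both Pearson's and Spearman's coefficients (permutation tests, two-sided, 100000 resamples, adjusted over the 45 pairs), 6 with a positive and 4 with a negative sign. Coefficients at least as far from 0 as the smallest of these (0.39 for r and 0.29 for rho) were held by these 10 pairs, 22.2% of the 45, and by 14.6% of all pairs of the 12758 liver genes that averaged 1 CPM or more, 7.86% positive and 6.77% negative. Whether the members differ in this from other liver genes was not tested. Pairs within the portal side passed in 3 of 6, pairs within the central vein side in 2 of 15, and pairs across the lobule in 5 of 24, of which 4 were negative. The livers share library depth and composition, and the coefficients describe covariation of whole pieces of tissue.

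The portal enzymes moved together. Hal and Gls2 had r = 0.86 and rho = 0.79 (permutation adjusted p = 9e-05 and 0.000225, each raw p being 1e-05, the smallest these permutations can give), with r = 0.92, 0.84 and 0.85 in preps 1, 2 and 3 and 0.83 without the 2 livers farthest from the median of Hal. Hal and Sds had r = 0.59 and rho = 0.51 (9e-05 and 0.0003), with 0.50, 0.64 and 0.78 by prep and 0.65 without 2 livers. Sds and Gls2 had r = 0.57 and rho = 0.50 (9e-05 and 0.00036), with 0.45, 0.65 and 0.73 by prep and 0.46 without 2 livers. Cdh1 belonged to none of the pairs that passed, and neither did Lgr5.

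On the central vein side, Axin2 and Tbx3 moved together with r = 0.71 and rho = 0.67 (permutation adjusted p = 9e-05 and 0.000225), with 0.62, 0.86 and 0.48 by prep and 0.68 without 2 livers. Glul and Rhbg had r = 0.41 and rho = 0.38 (0.00146 and 0.00341), with 0.69, 0.52 and 0.12 by prep and 0.29 without 2 livers. Axin2 and Tbx3 are both β-catenin targets, and Rhbg and Glul take up and bind ammonia.

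Across the lobule, Rhbg was low where the portal enzymes were high. Its r was -0.55 with Hal (rho = -0.44, permutation adjusted p = 9e-05 and 0.00036), with -0.44, -0.65 and -0.68 by prep and -0.45 without 2 livers. With Gls2 it was -0.50 (rho = -0.45, 0.00015 and 0.000525; -0.46, -0.56 and -0.60 by prep; -0.47 without 2 livers), and with Sds -0.39 (rho = -0.30, 0.00472 and 0.0328; -0.53, -0.39 and -0.36; -0.35). Glul and Gls2, the enzymes that make and break glutamine, had r = -0.39 (rho = -0.29, 0.00472 and 0.0365; -0.53, -0.35 and -0.22 by prep; -0.25 without 2 livers). Oat went with the portal enzyme Gls2 (r = 0.43, rho = 0.35, 0.00141 and 0.0105; 0.64, 0.14 and 0.33 by prep; 0.33 without 2 livers), the positive one of the 5 pairs across the lobule that passed. In no prep alone did a negative pair pass (0 in each, against 4 over the 83 livers), and with the clock gene score removed 3 did, that of Rhbg and Sds being lost at r = -0.36.

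**Figure D4:**
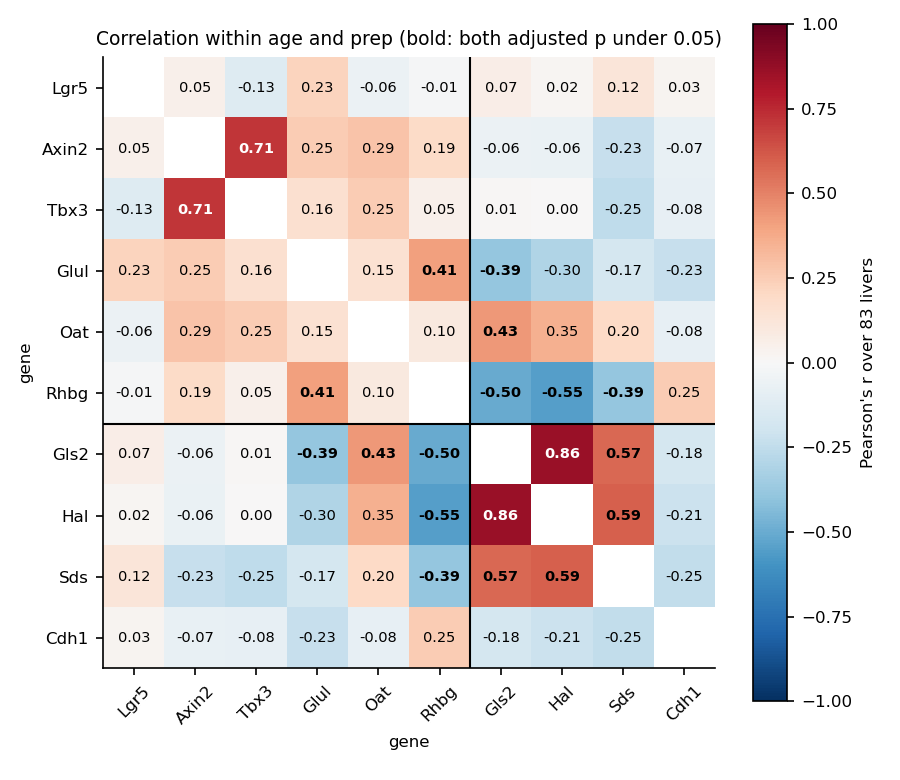
Pearson's r of each pair of members over 83 livers after removal of age and prep means; black lines separate central vein from portal members, and bold values passed with both coefficients. The block of Hal, Sds and Gls2 is positive, between 0.57 and 0.86, and their values with Rhbg are negative, between -0.55 and -0.39.

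The genes whose residual level was most like that of each member, among the 12748 genes that averaged 1 CPM or more, are given as a description. Nearest to Gls2 were Ass1, argininosuccinate synthetase of the urea cycle (r = 0.89), Amdhd1 (0.88) and Mthfd1 (0.87). Nearest to Hal were Amdhd1, a later enzyme of histidine breakdown that lies 4033 bases away with no protein-coding gene between (0.88), Mthfd1 (0.79) and Cth (0.78). Among the nearest to Sds were Sdsl, its paralog 3715 bases away (0.75), and Ctsl (0.73). Nearest to Oat was Lhpp (0.85), 34239 bases away on the opposite strand with 1 protein-coding gene between, followed by Ugt2a3 (0.57) and Gas2 (0.56).

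For the Wnt-dependent members, Axin2 was most like Sp5, a transcription factor that β-catenin induces (0.64), Ppp1r3c (0.60) and Ccn1 (0.58), and these values were 0.24, 0.33 and 0.29 in prep 3 alone. Tbx3 was most like Apoc2 (0.64), Rnf43, a ubiquitin ligase that removes Wnt receptors (0.63), and G0s2 (0.62). Lgr5 was most like Cpeb3 (0.58), the Wnt co-receptor Lrp5 (0.52) and the R-spondin receptor Lgr4 (0.52). Among the genes most like Glul were Tbx3os1 (0.63) and Gulo (0.62). Rhbg was most like the class I antigen H2-K1 (0.70), the interferon-induced GTPase Ifi47 (0.69) and S1pr2 (0.68). Cdh1 was most like Epcam (0.75), Tspan8 (0.75) and Spint1 (0.68), and these values were 0.55, 0.54 and 0.42 without 28 months replicate 14 and 24 months replicate 10; in prep 1 alone that of Spint1 was 0.39.

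The brains of the same mice served to ask whether the changes were particular to liver. Hal, Sds and Rhbg were close to 0 there, with 3-month means of 0.0318, 0.162 and 0.00441 CPM, and were not tested, while Glul, made by astrocytes, had a 3-month mean of 1580 CPM. Of the 7 members that could be tested in both tissues, 4 differed between liver and brain in their change from 3 to 28 months, against 49.2% of 14035 genes. The change in liver minus that in brain was -2.34 ± 0.38 for Cdh1 (edgeR adjusted p = 9.63e-08), -0.61 ± 0.22 for Tbx3 (0.017), 0.62 ± 0.15 for Oat (0.000304) and 0.45 ± 0.17 for Lgr5 (0.0212). This fit took brain and liver of 1 mouse as independent. With a block for the mouse the values were -2.78 (edgeR adjusted p = 1.77e-08), -0.78 (0.000347), 0.59 (0.000767) and 0.53 (0.00211). In brain alone, the changes of these 4 were -0.20, -0.09, -0.03 and 0.06 and did not pass; the values within 1 tissue come from a fit of that tissue alone. 1 brain, 28 months replicate 15, stood apart, with a mean Spearman's rho of 0.867 with the others of its age and 11.5 M counts. It had 23.0 CPM of Oat and 2.99 of Axin2, where the other 17 brains of 28 months had at least 71.9 and 20.3. Without it the same 4 members differed between the tissues, by -2.34 for Cdh1 (edgeR adjusted p = 9.52e-08), -0.63 for Tbx3 (0.0142), 0.56 for Oat (0.000437) and 0.41 for Lgr5 (0.0337), against 48.3% of all genes, and their changes in brain alone were -0.19, -0.06, 0.03 and 0.11 and did not pass. Glul rose in brain (0.14, edgeR adjusted p = 0.028; 0.17, 0.00608 without that brain), where 28.3% of all genes tested changed, and its change did not differ between the tissues by the test (0.01, 0.952). That of Axin2 (-0.02, 0.951) and of Gls2 (0.13, 0.504) did not pass either.

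Other genes of the central vein side also moved both ways. Of 24 such genes 10 rose and 8 fell from 3 to 28 months, where 31.9% of all genes tested rose and 30% fell. Their median was 0.25 against 0.01 over all genes. The largest changes were those of Slc13a3, a dicarboxylate transporter (1.82 ± 0.23, edgeR adjusted p = 1.6e-10; from 15.5 ± 9.14 to 55.1 ± 15.1 CPM, SD, n = 16 and 18), Cyp2c37 (1.39, 1.02e-08), Rnase4 (1.18, 4.66e-12) and Tnfrsf19 (0.73, 4.4e-05). Slc1a2, the glutamate transporter of the Glul-expressing hepatocytes, rose by 0.56 (1.84e-06). Cyp2e1, the ethanol-oxidising P450, was at 5676 and 5920 CPM and did not pass (0.06, 0.684). Cyp1a2, Cyp27a1, Rgn, Gulo, Aldh1a1, Aldh3a2 and Gstm1 were among those that fell; without 28 months replicate 14, 9 rose and 6 fell, and Gulo, Gstm1 and Slc1a4 no longer passed. Cyp2c37 belongs to a family of near-identical genes whose reads may be split by the counting.

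Of 24 other portal genes 8 rose and 10 fell, with a median of -0.03, where 31.9% of all genes tested rose and 30% fell. Cyp2f2, the P450 used most often to mark portal hepatocytes, fell from 986 ± 137 to 386 ± 123 CPM (SD; -1.35 ± 0.13, edgeR adjusted p = 4.84e-15). Serpina1e, of a family of near-identical genes, fell by 2.81 (1.09e-11), Etnppl, which breaks down phosphoethanolamine, by 1.38 (1.22e-07), and G6pc, the last enzyme of glucose release, by 1.29 (8.21e-05). Pck1, the enzyme that commits carbon to gluconeogenesis, rose by 0.90 (0.0102). Cps1, the entry of the urea cycle, did not pass (0.08, 0.561). In the pathway of Hal, Uroc1 rose by 0.17 (0.0242), Ftcd fell by 0.19 (0.0352) and Amdhd1 did not pass (-0.18, 0.116); Ftcd no longer passed without 28 months replicate 14, which left 8 higher and 9 lower. Sdsl did not pass (0.26, 0.156).

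**Figure D5:**
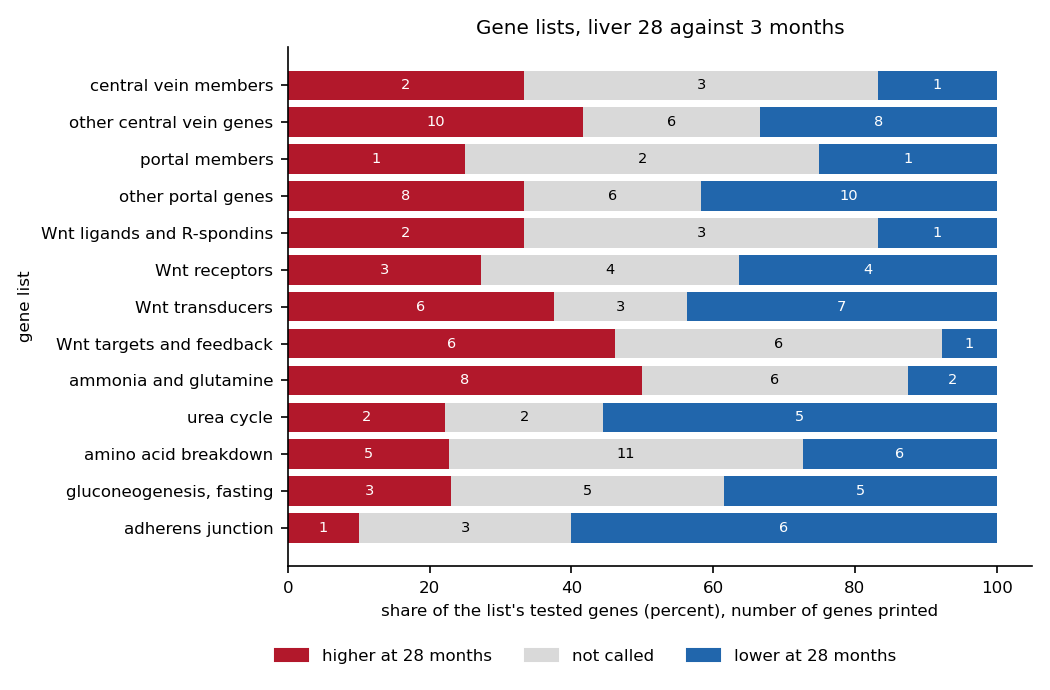
Share of each list's tested genes that were higher (red), not called (grey) or lower (blue) at 28 than at 3 months, with the number of genes in each bar. In both the central vein list (10 and 8 of 24) and the portal list (8 and 10 of 24) genes moved both ways, as they did over all genes tested (31.9% higher and 30% lower).

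In the Wnt pathway upstream of Axin2, Lgr5 and Tbx3, ligands changed singly. Of 8 ligand and R-spondin genes 6 were tested. Of all genes tested, 31.9% rose and 30% fell from 3 to 28 months. Wnt2, made by liver endothelium, fell from 4.75 ± 0.848 to 2.91 ± 0.807 CPM (SD; -0.69 ± 0.13, edgeR adjusted p = 5.51e-06), Wnt4 rose (0.44, 0.00721), and Rspo3, the main R-spondin of the central vein, rose by 0.13 (0.0483). Wnt9b, the other ligand of central vein endothelium, was at 2.08 and 1.99 CPM and did not pass (-0.06, 0.726). Of 11 receptors 3 rose and 4 fell, with Fzd5 (-0.62, 3.41e-06) and Fzd7 (-0.59, 3.14e-06) changed most, and Lgr5 and Fzd6 (0.26, 0.0499) among those that rose. Without 28 months replicate 14, 3 receptors rose and 3 fell; Fzd6 and Ryk no longer passed and Fzd8 did. Of 16 transducers 6 rose and 7 fell, among them Lef1 (0.78, 0.0194), Dvl2 (0.71, 6.34e-08) and Bcl9l (-0.52, 1.94e-05), with β-catenin itself, Ctnnb1, among those that fell; without the same liver 5 rose and 6 fell, Bcl9 and Gsk3a being lost.

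Among 13 target and feedback genes of β-catenin 6 rose (Lgr5, Nkd1, Ccnd1, Tcf7, Lef1 and Dkk3) and 1 fell, Tbx3, with a median of 0.19. Of all genes tested, 31.9% rose and 30% fell in this comparison. Dkk3 rose by 1.24 (edgeR adjusted p = 1.42e-14), Ccnd1, cyclin D1, by 0.86 (0.000264), Tcf7 by 0.63 (2.41e-06) and Nkd1, an inhibitor that Wnt signals induce, by 0.20 (0.0225). The receptor-removing ligases Rnf43 (-0.02, 0.907) and Znrf3 (0.03, 0.851) did not pass. Lef1, Tcf7 and Ccnd1 are also expressed by immune or dividing cells, and 5 of 7 proliferation markers, as well as the immune markers given below, rose in the same comparison. The part of such cells in the rise of Lef1, Tcf7 and Ccnd1 was not tested.

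Around Glul, Gls2 and Oat, 8 of 16 genes of ammonia and glutamine handling rose, Oat itself among them, and 2 fell, with a median of 0.30. Of all genes tested, 31.9% rose and 30% fell in this comparison. Aldh18a1, which makes the precursor of proline and ornithine, rose by 1.20 (edgeR adjusted p = 1.25e-05) and the amino acid transporter Slc7a7 by 0.62 (0.000771). Glud1, glutamate dehydrogenase, and the ornithine carrier Slc25a15 (-0.40, 9.3e-05) fell. In the urea cycle 2 of 9 genes rose, among them Asl (0.72, 8.55e-06), and 5 fell, among them Otc (-0.42, 1.81e-05) and the carbonic anhydrase Car5a (-0.32, 0.00373).

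Around Sds and Hal, 5 of 22 genes of amino acid breakdown rose and 6 fell, the largest changes beside that of Sds being those of Got1 (0.60, edgeR adjusted p = 0.0049), Kmo (-0.58, 2.82e-12) and Tdo2 (-0.49, 4.5e-05), both of tryptophan breakdown; without 28 months replicate 14, 5 rose and 5 fell. Of 13 genes of gluconeogenesis and fasting 3 rose and 5 fell. Of all genes tested, 31.9% rose and 30% fell. The fasting hormone Fgf21 fell by 1.93 (0.00011) and Pdk4 by 1.03 (0.000554), while the coactivator Ppargc1a rose by 1.07 (6.12e-07). Around Cdh1, 1 of 10 adherens junction genes rose, Jup (0.31, 1.16e-06), and 6 fell: Cdh1, Nectin1 (-0.39, 0.00224), Nectin2 (-1.03 ± 0.08, 1.4e-17), Nectin3, Ctnna1 and Ctnnb1.

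Markers of other cell types moved with age in the same livers. From 3 to 28 months, 10 of 10 Kupffer cell and macrophage markers, 8 of 8 of B and plasma cells, 8 of 10 of T and natural killer cells, 5 of 5 of neutrophils and 6 of 10 of stellate cells rose and none fell. Of all genes tested, 31.9% rose and 30% fell. The summed level of the macrophage markers ran from 378 to 1374 CPM at 3 months and from 604 to 5025 at 28, that of the B and plasma cell markers from 20.0 to 87.1 and from 107 to 1897, and that of the neutrophil markers from 4.84 to 31.0 and from 11.5 to 483. The highest of these sums came from 1 liver each, at 3 months from replicate 12 in all 3 lists, where the next highest were 640, 66.3 and 12.6, and at 28 months from replicates 9, 2 and 3, where they were 2434, 1127 and 111. Of 12 endothelial markers 3 rose and 3 fell, of 4 red cell genes 3 rose and 1 fell, and of the fat and pancreas markers only Cela1 could be tested, which fell. Without 28 months replicate 14, 4 endothelial markers rose and 3 fell, 5 of 10 stellate markers rose, and 2 red cell genes rose and 1 fell. Of 12 hepatocyte markers 5 fell, among them Ttr, Apoa2, Apob and Hnf4a, and none rose, and their summed level had medians of 115111 and 121104 CPM; without the same liver 1 rose, Alb, and 5 fell. The part of these shifts in the members' changes was not tested.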

How the data were processed

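Polyadenylated RNA of 83 livers and 82 brains was sequenced as 100-base paired reads from stranded TruSeq libraries, per the labels' protocols and the series' design text; 1 brain of 3 months is not analysed here. The authors deposited 1 table of raw read counts per gene for each tissue, and the submitters' processing notes name cutadapt 2.8, HISAT2 2.1.0, SAMtools 1.9, featureCounts of Subread 2.0.1 and the build GRCm38.p6, without their roles or settings. The annotation, the strand setting and the handling of reads with several positions are not given in the sources used here. Symbols were matched to 55144 of 55471 liver entries.

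Counts were scaled by TMM and filtered by edgeR's filterByExpr on age, and tested with edgeR 4.0.16 (R 4.3.3; glmQLFit and glmQLFTest, terms for age and prep, all 83 livers); p-values were adjusted over 15579 genes, and 0.05 was the threshold. The standard error is that of the log2 fold change, taken from the F statistic. Liver and brain were compared by an interaction term in 1 fit over both tissues, without a term for the mouse. CPM were computed from the deposited counts. Correlations and likeness used log2 CPM (prior count 2). The procedures were tested on simulated data. The precision of a level is set by these depths and by 16 to 18 mice per age.

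The members and the gene lists were chosen with earlier results of these data known. Every member is named; of each list the up to 4 genes with the largest called change from 3 to 28 months are named, with fixed genes of the members' own pathways. Some genes that this rule would name are not reported here. Likeness names the 3 genes with the highest Pearson's r over the 83 livers. Alternatives were RLE size factors, DESeq2 1.42.0, limma 3.58.1 (voom with sample weights), no filter, no prep term, each prep alone, the 2 ages alone, a block for the replicate number, a clock gene score as a covariate, and each liver left out in turn. Leaving out the 2 livers least like their age, leaving out the 2 farthest livers in likeness, recounting the gene lists without these livers, fitting Cdh1 in prep 2 without 28 months replicate 14, and fitting brain and the comparison of tissues without brain 28 months replicate 15 were chosen after seeing the data, as was the comparison of member pairs with all pairs of genes. Brain and liver libraries with the same age and mouse number come from the same mouse, per the labels. The main comparison of tissues did not use this pairing, and a fit with a block for the mouse is given as an alternative. Replicate numbers of different ages are only names.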

Additional observations from a re-analysis of the deposited data

Results flagged for a closer look

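The change from 3 to 28 months differed between liver and brain in 4 of the 7 members tested in both tissues, by the interaction term in edgeR, against 49.2% of the 14035 genes in that test. The change in liver minus that in brain was -2.34 on the log2 scale for Cdh1 (adjusted p = 9.63e-08), -0.61 for Tbx3 (0.017), 0.62 for Oat (0.000304) and 0.45 for Lgr5 (0.0212). With a block for the mouse, whose brain and liver both entered the fit, the values were -2.78 (1.77e-08), -0.78 (0.000347), 0.59 and 0.53 (0.00211), and the same 4 passed. Without brain 28 months replicate 15, which stood apart from the other brains of its age, the same 4 passed, Lgr5 with 0.41 (0.0337).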

How the results depend on the processing

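The 5 members called at 28 against 3 months were called in every fit that left out 1 liver, and no member result changed direction while called. With RLE size factors 70 of 70 member results kept their side of the threshold. The number of members called at 9 months, 1 as reported, was 2 with DESeq2, without a prep term, with only the 2 ages, with the replicate block, with voom and without the 2 livers least like the others, Cdh1 being the second. At 24 months it was 5, and 3 with no filter, with voom, with the clock score and without those 2 livers. With voom it was 1 from 9 to 15 months, 2 from 15 to 24 and 1 from 24 to 28, and without the 2 livers 1 from 24 to 28. Preps 1, 2 and 3 alone, with fewer livers each, called 0, 0 and 0 at 9 months, 0, 1 and 0 at 15, 1, 3 and 2 at 24, 1, 2 and 4 at 28, 0, 0 and 0 from 15 to 24, 1, 0 and 1 from 24 to 28, and 1, 2 and 3 over all ages; they called 3, 5 and 3 pairs in the correlations, against 10, and 0, 0 and 0 negative ones, against 4. With the clock score removed 9 pairs passed, 3 of them negative.

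With 1 liver left out the counts ran from 1 to 2 at 9 months, 3 to 4 at 15 (Glul gained without 15 months replicate 1, adjusted p = 0.0448), 3 to 5 at 24, 5 to 5 at 28, 0 to 0 from 9 to 15, 1 to 1 from 15 to 24, 0 to 1 from 24 to 28 and 5 to 6 over all ages. The calls of Tbx3 and Glul at 24 months were lost in single fits (Tbx3 -0.51 to -0.41; Glul 0.16 to 0.22). The replicate numbers do not pair livers of different ages: over 161 pairs with the same number the median correlation of deviations was 0.00910, and 33 were over 0.1. With the replicate block the count was 2 at 9 months and 4 at 24, Tbx3 being lost (0.0838).

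Over all genes, calls at 9 months were 731, and 12, 12 and 3 by prep, 342 with 2 ages, 316 with voom, and 313, 310, 348 and 293 without 3 months replicates 10, 13, 15 and 16. At 15 months they were 1140, and 58, 64 and 14 by prep, 708 with 2 ages, and 734, 604, 676 and 631 without the same livers. At 24 months they were 7636, and 906 and 2443 in preps 1 and 2; at 28 months 9639, and 6198 and 2457. From 9 to 15 months they were 8, 0 in each prep and 5 without 15 months replicate 1. From 15 to 24 months they were 5609, and 3, 2630 and 1290 by prep. From 24 to 28 months they were 2385, 0 and 198 in preps 2 and 3, 1152 with 2 ages, 4157 with voom, 115 with the clock score, 3673 without the 2 livers and 3616 without 24 months replicate 13. Over all ages they were 11132, and 5929, 4464 and 6455 by prep. Causes of these shifts were not tested beyond the number of livers each fit had.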
